A study of Mus musculus with 6 samples.

Results

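Collagens are the main proteins of the extracellular matrix. A collagen molecule is a trimer of chains wound around each other, and in the helix of each chain the amino acid glycine recurs once in every 3 positions. In fat, basement membrane collagens surround each adipocyte and blood vessel, fibrillar collagens form the fibres between the lobules, and collagen VI forms beaded filaments between the basement membrane and the fibres. Every gene of the deposited table whose symbol has the form of a collagen chain (*Col*, a number, *a*, a number) was taken, which gave 44 of 24346 genes. They were grouped as 11 fibrillar chains, 8 chains of basement membranes, 6 chains of collagen VI and 19 others.

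RNA was sequenced from the epididymal white adipose tissue (WAT) of 3 Armc5 flox mice and of 3 mice labelled AdArmc5 KO. All carried LoxP sites around exons 2 and 3 of *Armc5*, the adaptor of a ubiquitin ligase, and in AdArmc5 KO an *Adipoq*-Cre transgene deletes these exons in adipocytes only. The mice were 24 weeks old, were fasted for 24 h and were refed for 6 h. The RNA came from whole tissue, so the other cells of fat keep the gene, and fewer cells of a type and less RNA per cell cannot be told apart. Levels are FPKM, in which the fragments of a gene are scaled to its exon length and to the size of the library, and each value below is given in the order of replicates 1, 2 and 3.

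*Armc5* itself stood at 5.12, 5.66 and 5.58 FPKM in Armc5 flox and at 3.66, 4.48 and 5.82 FPKM in AdArmc5 KO. The library labelled AdArmc5 KO replicate 3 was therefore not below the flox libraries, although the count over the whole gene also takes in exons outside the deletion. The libraries held 25320719 to 38311611 fragments. *Foxj1*, a transcription factor of ciliated cells, was at 76.0, 0.208 and 0.708 FPKM in Armc5 flox and at 0.330, 62.4 and 0.637 FPKM in AdArmc5 KO, and so was high in one library of each genotype. *Akr1b7*, a gene of the vas deferens, was at 3122 FPKM in the library labelled AdArmc5 KO replicate 3 and at most 17.4 elsewhere. The adipocyte hormone gene *Adipoq* was at 1896 FPKM or more in every library.

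The sequence that defines the family is shown first, because the classes below differ in how far it runs without a break. In the coding sequence of the longest coding transcript in GENCODE M21, the longest run of glycine codons spaced 3 codons apart was 216 to 344 triplets in the fibrillar chains, 30 to 66 in the basement membrane chains, 37 to 87 in the collagen VI chains and 23 to 113 in the others. Fibrillar genes are also built from many exons of 54 bases, each holding 6 triplets. Their number was 21 to 33 per fibrillar chain, 1 to 3 per basement membrane chain and 2 to 3 per collagen VI chain. The other chains held 0 to 28, with 28 in *Col22a1*, so their range overlapped that of the fibrillar chains. An exon of this length, the first one inside the longest run, follows for 5 chains, 5′ to 3′ on the coding strand of GRCm38 (mm10), with glycine codons in capitals. The last line is an exon of *Col4a1* that spans a break. There, 4 codons in place of 2 separate neighbouring glycine codons at the start of the line and again past its middle.
Col1a1 (chr11:94939904-94939957, plus strand): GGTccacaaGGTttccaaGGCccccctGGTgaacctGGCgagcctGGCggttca
Col1a2 (chr6:4515481-4515534, plus strand): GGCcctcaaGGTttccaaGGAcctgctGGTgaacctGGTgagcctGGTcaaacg
Col3a1 (chr1:45325360-45325413, plus strand): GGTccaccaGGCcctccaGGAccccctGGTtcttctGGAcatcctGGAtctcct
Col5a3 (chr9:20801068-20801121, minus strand): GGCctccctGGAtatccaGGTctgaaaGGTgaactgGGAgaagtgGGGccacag
Col6a1 (chr10:76719623-76719676, minus strand): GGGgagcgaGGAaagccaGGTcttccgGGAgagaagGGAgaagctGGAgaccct
Col4a1 (chr8:11235095-11235259, minus strand): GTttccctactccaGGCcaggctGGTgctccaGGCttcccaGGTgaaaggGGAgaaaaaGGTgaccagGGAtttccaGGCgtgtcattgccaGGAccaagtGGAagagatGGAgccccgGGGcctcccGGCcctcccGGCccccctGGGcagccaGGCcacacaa

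Of the 44 chains, 27 reached 1 FPKM in at least 3 libraries and were tested, and 17 were not. In Armc5 flox, *Col4a1* and *Col4a2*, the chains of the common basement membrane network, had the highest means, 340 ± 157 and 228 ± 73.8 FPKM (SD, n = 3 each). *Col3a1* (147 ± 49.4 FPKM), *Col6a1* (117 ± 50.2 FPKM) and *Col1a2* (113 ± 15.9 FPKM; SD, n = 3 each) followed, and these neighbours in the order did not differ beyond their spread. In AdArmc5 KO the order began with *Col4a1* (431 ± 191 FPKM), *Col4a2* (268 ± 119 FPKM) and *Col6a1* (261 ± 148 FPKM; SD, n = 3 each), again within their spread. The tested chain of lowest level was *Col20a1*, with 0.922 ± 0.222 FPKM in Armc5 flox and 1.36 ± 0.269 FPKM in AdArmc5 KO (SD, n = 3 each).

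**Figure D1:**
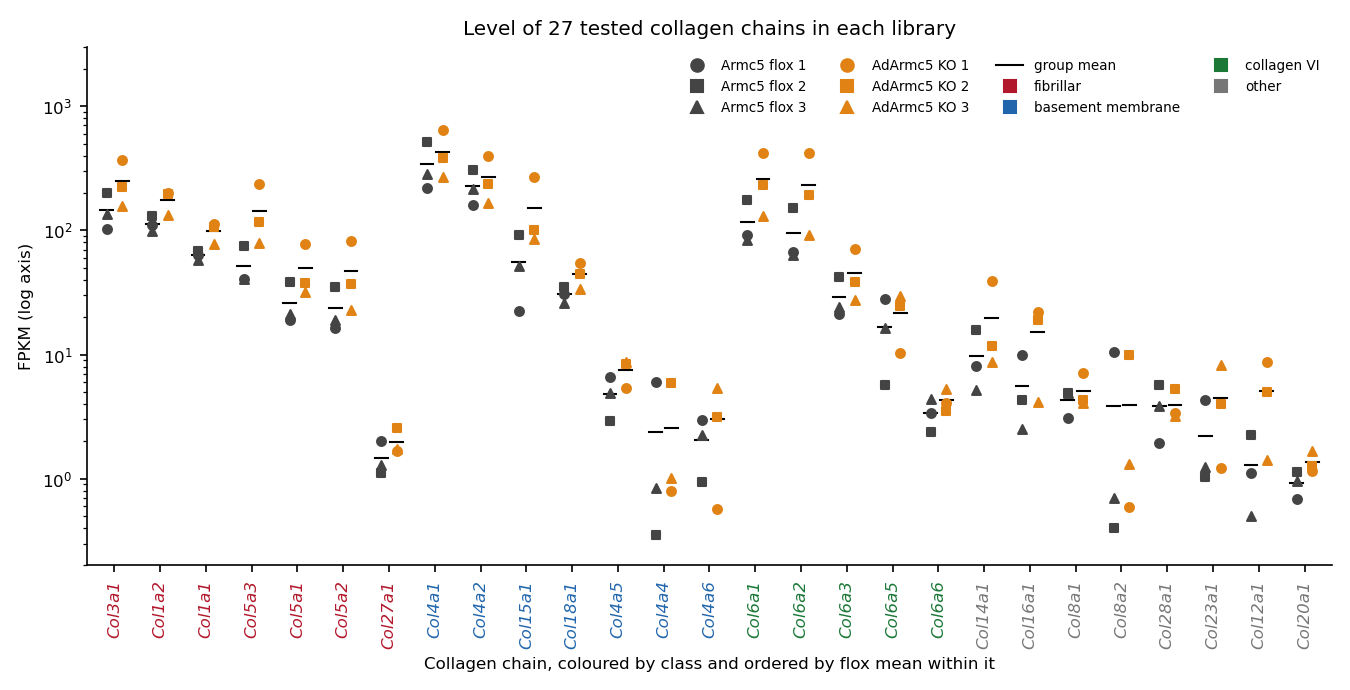
FPKM (log axis) of each of the 27 tested collagen chains in each of 6 libraries, with Armc5 flox in grey, AdArmc5 KO in orange, a symbol for each replicate and lines for group means. *Col4a1* is the highest chain in both genotypes, and the orange circles of AdArmc5 KO replicate 1 are the highest point for 17 chains.

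In the comparison of AdArmc5 KO with Armc5 flox, all 27 tested chains had a higher mean in AdArmc5 KO on the log2(FPKM + 1) scale, with a median log2 fold change of 0.58. Over all 12670 genes tested, 43.5% lay above 0 and the median was −0.03. No single chain passed the test, and none of the 12670 tested genes did. This holds for the fit used here. The paper lists genes at a false discovery rate under 0.05 from its own analysis of these libraries, *Scd1* among them. With limma and Benjamini-Hochberg adjustment over all tested genes, 0 of 27 chains and 0% of all genes had an adjusted p under 0.05, and the adjusted p of the chains ran from 0.983 to 0.999. Unadjusted p was under 0.05 for 3 chains, *Col1a1*, *Col1a2* and *Col5a3*, each higher in AdArmc5 KO, where 2.18% of all genes were higher at that p and 1.18% lower. The count of 3 chains became 7 without Armc5 flox replicate 2 and 1 without Armc5 flox replicate 3. It was 12 without the library labelled AdArmc5 KO replicate 3 and 0 without both libraries that carried *Foxj1*. The share of all genes at that p was not counted with libraries left out, so these counts cannot be set against it. Every AdArmc5 KO library lay above every Armc5 flox library for 4 chains, these 3 and *Col20a1*, against 3.54% of all genes. With 3 libraries in each genotype, the smallest two-sided p of an exact permutation test is 0.1, so no chain could pass it.

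**Figure D2:**
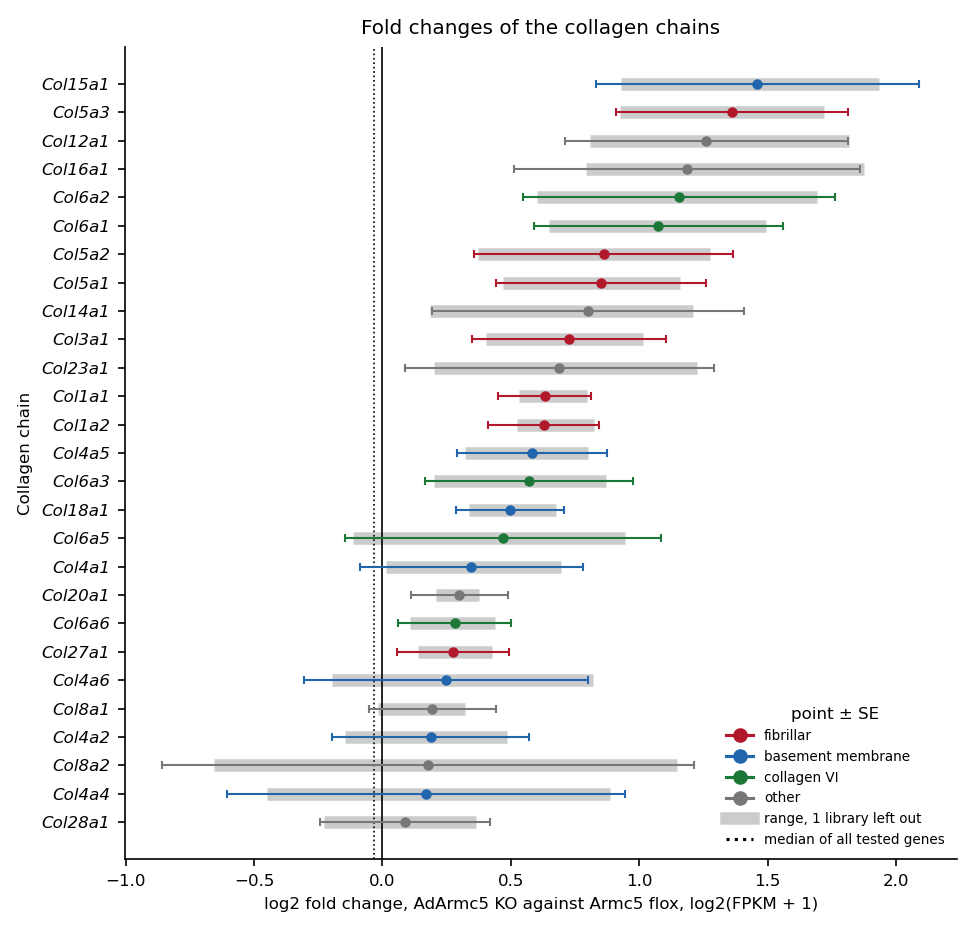
Log2 fold change of AdArmc5 KO against Armc5 flox on the log2(FPKM + 1) scale for each tested chain (points, with SE), coloured by class, with grey bars for the range when 1 library is left out and a dotted line at the median of all tested genes. All 27 points lie above 0, and the grey bars of 7 chains cross it.

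The 7 tested fibrillar chains had a median log2 fold change of 0.73, which was 0.47 without AdArmc5 KO replicate 1. *Col1a1* and *Col1a2* encode the chains of collagen I, the main fibre collagen. *Col1a1* was at 63.0, 68.6 and 57.2 FPKM in Armc5 flox and at 113, 107 and 77.4 FPKM in AdArmc5 KO. *Col1a2* was at 111, 130 and 98.2 FPKM in Armc5 flox and at 201, 198 and 132 FPKM in AdArmc5 KO. For both, the groups did not overlap, and the library labelled AdArmc5 KO replicate 3 stood closest to the flox libraries. The log2 fold change was 0.63 (SE 0.18) for *Col1a1* (limma, unadjusted p = 0.012, adjusted p = 0.98) and 0.63 (SE 0.22) for *Col1a2* (unadjusted p = 0.026, adjusted p = 0.98). With 1 library left out in turn, *Col1a1* stayed between 0.53 and 0.80 and *Col1a2* between 0.52 and 0.82.

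*Col5a3* encodes the third chain of collagen V, a collagen that co-assembles with collagen I and limits the width of its fibrils. It was at 40.4, 75.2 and 40.5 FPKM in Armc5 flox and at 238, 116 and 78.5 FPKM in AdArmc5 KO. The groups did not overlap, but flox replicate 2 lay only just below the library labelled AdArmc5 KO replicate 3. Its log2 fold change was 1.36 (SE 0.45; limma, unadjusted p = 0.022, adjusted p = 0.98), and 0.93 without AdArmc5 KO replicate 1. The other collagen V chains had log2 fold changes of 0.85 (SE 0.41) for *Col5a1* and 0.86 (SE 0.50) for *Col5a2*, and without AdArmc5 KO replicate 1 these were 0.47 and 0.37. *Col3a1*, the chain of collagen III, which shares fibrils with collagen I, was at 103, 201 and 136 FPKM in Armc5 flox and at 368, 224 and 157 FPKM in AdArmc5 KO. Its groups overlapped, because flox replicate 2 exceeded the library labelled AdArmc5 KO replicate 3, and its log2 fold change was 0.73 (SE 0.38), or 0.40 without AdArmc5 KO replicate 1. *Col27a1*, a fibrillar chain best known from cartilage, was low, at 1.48 ± 0.481 FPKM in Armc5 flox and 1.99 ± 0.515 FPKM in AdArmc5 KO (SD, n = 3 each).

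Collagen VI is made of *Col6a1*, *Col6a2* and one longer chain, *Col6a3* in most tissues. *Col6a1* was at 91.5, 174 and 83.8 FPKM in Armc5 flox and at 422, 230 and 130 FPKM in AdArmc5 KO. *Col6a2* was at 67.3, 153 and 63.3 FPKM in Armc5 flox and at 418, 191 and 91.3 FPKM in AdArmc5 KO. In both, replicates 1 and 2 of AdArmc5 KO were above all flox libraries and the library labelled AdArmc5 KO replicate 3 lay below flox replicate 2. The log2 fold changes were 1.07 (SE 0.48) for *Col6a1*, 1.15 (SE 0.61) for *Col6a2* and 0.57 (SE 0.40) for *Col6a3*. Without AdArmc5 KO replicate 1 they were 0.65, 0.60 and 0.20. *Col6a3*, whose end is cleaved off as the fragment endotrophin, was at 21.3, 42.4 and 24.1 FPKM in Armc5 flox and at 70.7, 38.2 and 27.3 FPKM in AdArmc5 KO. The alternative long chains differed in their pattern. *Col6a5* was at 28.01, 5.68 and 16.5 FPKM in Armc5 flox and at 10.4, 24.8 and 29.7 FPKM in AdArmc5 KO, so that it was lowest in flox replicate 2 and AdArmc5 KO replicate 1, where *Col6a1* was highest in each genotype. *Col6a6* was at 2.40 to 4.38 FPKM in Armc5 flox and 3.53 to 5.27 FPKM in AdArmc5 KO, and *Col6a4* did not exceed 0.156 FPKM.

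The 7 tested basement membrane chains had a median log2 fold change of 0.35, below that of the fibrillar chains with all libraries in. Without AdArmc5 KO replicate 1 it was 0.52, against 0.47 for the fibrillar and 0.60 for the collagen VI chains. The order of the classes also changed without Armc5 flox replicate 1. The collagen VI median was then 0.94 and the fibrillar one 0.63, against 0.57 and 0.73 with all libraries in. The order thus depends on which libraries are included. *Col4a1* was at 219, 518 and 284 FPKM in Armc5 flox and at 642, 382 and 269 FPKM in AdArmc5 KO, and the groups overlapped widely. Its log2 fold change of 0.35 (SE 0.43) became 0.01 without AdArmc5 KO replicate 1, and that of *Col4a2*, 0.19 (SE 0.38), became −0.15. These genes lie head to head on chromosome 8 of mm10 and overlap by 85 bases in RefSeq, and *Col4a3* and *Col4a4* on chromosome 1 overlap by 114 bases. The library kit keeps the strand, but whether the counting used it is not given in the sources used here, so fragments in these overlaps are uncertain. *Col15a1* and *Col18a1* encode the collagens that carry heparan or chondroitin sulphate chains and release endostatin-type fragments. *Col15a1* had a log2 fold change of 1.46 (SE 0.63; limma, unadjusted p = 0.058), which was 0.93 when Armc5 flox replicate 1 was left out and 0.95 when AdArmc5 KO replicate 1 was. Its levels were 22.3, 92.6 and 51.7 FPKM in Armc5 flox and 271, 100 and 85.6 FPKM in AdArmc5 KO, where flox replicate 2 lay above the library labelled AdArmc5 KO replicate 3. *Col18a1* was at 25.9 to 35.04 FPKM in Armc5 flox and 33.7 to 54.5 FPKM in AdArmc5 KO, a log2 fold change of 0.50 (SE 0.21).

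Among the other chains, *Col12a1*, *Col14a1* and *Col16a1* belong to the fibril-associated collagens, which coat fibres and have interrupted helices. *Col12a1* was at 1.11, 2.25 and 0.503 FPKM in Armc5 flox and at 8.79, 5.0 and 1.42 FPKM in AdArmc5 KO, a log2 fold change of 1.26 (SE 0.55). *Col16a1* was at 9.82, 4.32 and 2.50 FPKM in Armc5 flox and at 21.99, 19.05 and 4.15 FPKM in AdArmc5 KO, a log2 fold change of 1.19 (SE 0.67). *Col14a1* was at 8.12, 15.7 and 5.17 FPKM in Armc5 flox and at 39.0, 11.8 and 8.69 FPKM in AdArmc5 KO, a log2 fold change of 0.80 (SE 0.61). Without AdArmc5 KO replicate 1 that of *Col14a1* was 0.19 and that of *Col12a1* 0.81. When single libraries were dropped, that of *Col16a1* was lowest, at 0.79, once AdArmc5 KO replicate 1 was gone. It was highest, at 1.87, once the library labelled AdArmc5 KO replicate 3 was left out. *Col14a1* was also at 0.47 when flox replicate 3 was left out, and at 1.21 when the library labelled AdArmc5 KO replicate 3 was. The library labelled AdArmc5 KO replicate 3 lay within the flox range for each of these 3 chains. *Col20a1*, whose groups did not overlap, was near the limit of the filter, with 0.686 to 1.13 FPKM in Armc5 flox and 1.15 to 1.67 FPKM in AdArmc5 KO and a log2 fold change of 0.30 (SE 0.19; limma, unadjusted p = 0.16). *Col8a1*, a short network-forming chain, and *Col28a1*, a chain known from Schwann cells, had log2 fold changes of 0.19 (SE 0.25) and 0.09 (SE 0.33).

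The sum over all 44 chains was 1061, 1920 and 1175 FPKM in Armc5 flox and 3465, 2061 and 1393 FPKM in AdArmc5 KO. The groups overlapped, because flox replicate 2 exceeded the library labelled AdArmc5 KO replicate 3. The collagen chains made up 0.204 to 0.364% of all FPKM in Armc5 flox and 0.282 to 0.652% in AdArmc5 KO. The ratio of the group means was 1.66 for all chains, 1.80 for the fibrillar class, 1.37 for the basement membrane class, 2.17 for collagen VI and 1.83 for the other chains. Without AdArmc5 KO replicate 1 the ratio was 1.25 for all chains and 1.02 for the basement membrane class. Collagen VI took 19.9, 19.7 and 16.4% of the collagen FPKM in Armc5 flox and 26.7, 23.7 and 20.4% in AdArmc5 KO. *Col4a1* and *Col4a2* together took 35.6, 42.9 and 42.7% in Armc5 flox and 30.05, 30.12 and 31.2% in AdArmc5 KO. The groups did not overlap in either share, with collagen VI on the higher and *Col4a1* with *Col4a2* on the lower side in AdArmc5 KO. Shares add up to 100%, so these are not independent of each other, and an exact permutation test could not reach a p under 0.1.

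**Figure D3:**
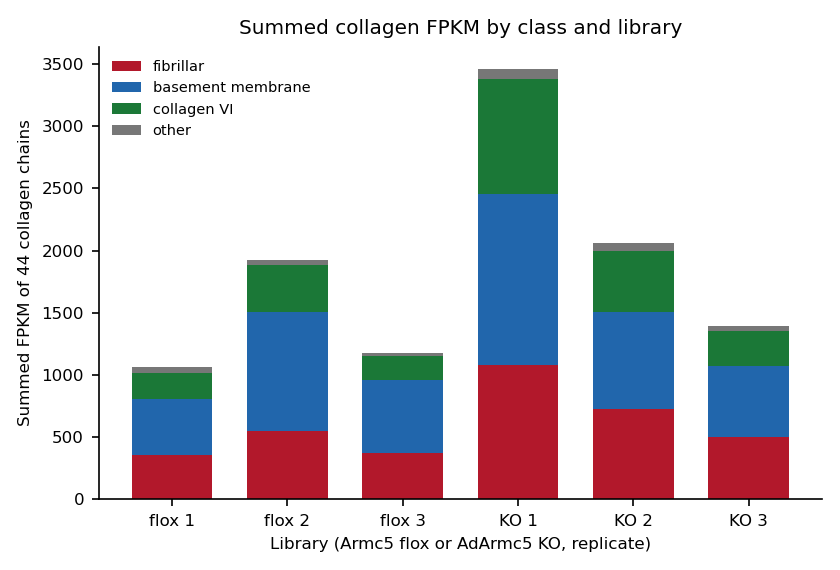
Summed FPKM of the 44 collagen chains in each library, stacked by class from 0. AdArmc5 KO replicate 1 reaches 3465 FPKM, and flox replicate 2 (1920) stands above the library labelled AdArmc5 KO replicate 3 (1393).

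Within a library, a ratio of 2 chains does not depend on the scaling of that library. *Col1a1* to *Col1a2*, whose products join in the same trimer, varied least, from 0.529 to 0.587 over all 6 libraries. *Col4a1* to *Col4a2* was 1.46 ± 0.207 in Armc5 flox and 1.61 ± 0.0104 in AdArmc5 KO (SD, n = 3 each), with overlap. *Col6a1* to *Col6a2*, *Col5a1* to *Col5a2* and *Col3a1* to *Col1a1* also overlapped between the genotypes. *Col6a3* to *Col6a1* was 0.233, 0.243 and 0.288 in Armc5 flox and 0.168, 0.166 and 0.209 in AdArmc5 KO. Each AdArmc5 KO library was thus below each flox library, with less *Col6a3* per *Col6a1*. *Col5a3* to *Col5a1* was 2.15, 1.95 and 1.92 in Armc5 flox and 3.04, 3.07 and 2.46 in AdArmc5 KO, without overlap, and this ratio and *Col4a4* to *Col4a3* were chosen after their values were seen. Both differences were larger than the SD within a genotype, and for 3 against 3 libraries the exact permutation test gives p = 0.1 at best (two-sided), so neither passes a threshold of 0.05.

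**Figure D4:**
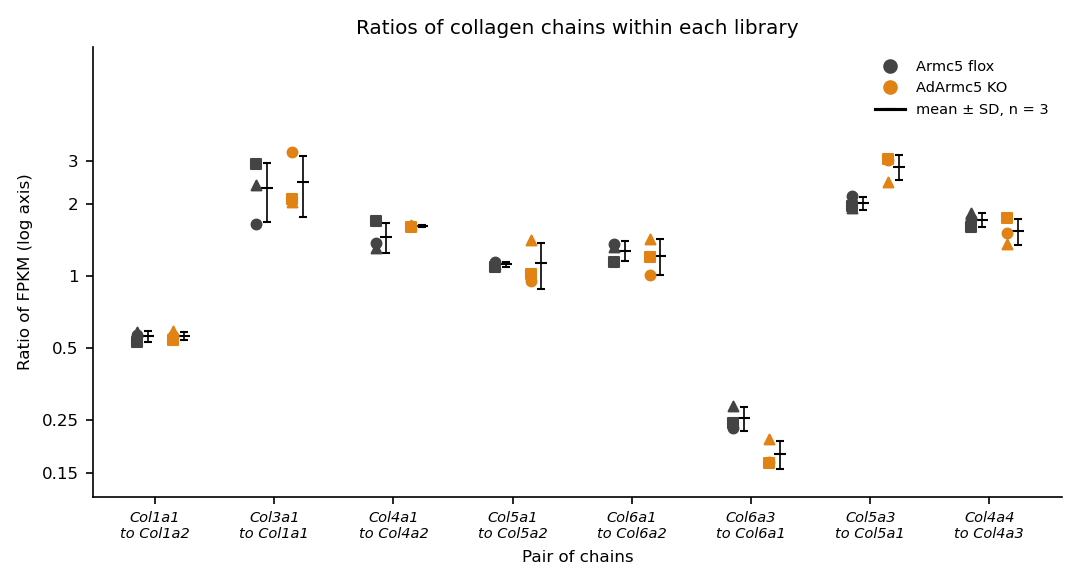
Ratio of the FPKM of 2 collagen chains within each library (log axis) for 8 pairs, with Armc5 flox in grey, AdArmc5 KO in orange and the mean and SD of 3 libraries beside the points. *Col1a1* to *Col1a2* stays between 0.529 and 0.587, while *Col6a3* to *Col6a1* and *Col5a3* to *Col5a1* do not overlap between the genotypes.

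The chains fell into patterns across libraries that cut through the genotypes. The share of all genes with each pattern was not counted, so these counts are not a result about collagen in particular. Over all tested genes, deviations from the group mean correlated at 0.68 for flox replicate 2 with AdArmc5 KO replicate 1. The correlation was 0.75 for flox replicate 1 with AdArmc5 KO replicate 2. Of the 27 tested chains, 17 were highest in AdArmc5 KO replicate 1, and for 16 of these flox replicate 2 was the highest flox library. A different set was high in libraries with epithelial markers, a grouping made after the values were seen. Among chains with 1 FPKM or more in both Armc5 flox replicate 1 and AdArmc5 KO replicate 2, 4 were at least 3 times higher in these than in every other library, namely *Col4a3*, *Col4a4*, *Col8a2* and *Col13a1*. *Col8a2*, a network-forming chain, was at 10.5, 0.403 and 0.703 FPKM in Armc5 flox and at 0.593, 9.87 and 1.31 FPKM in AdArmc5 KO. *Col4a4* was at 5.99, 0.351 and 0.839 FPKM in Armc5 flox and at 0.793, 5.85 and 1.01 FPKM in AdArmc5 KO, and *Col4a3*, with which it shares a trimer in specialised basement membranes, at 3.48, 0.220 and 0.461 FPKM and at 0.525, 3.36 and 0.741 FPKM. *Col13a1* is a transmembrane chain. These are the libraries in which *Foxj1* was at 76.0 and 62.4 FPKM.

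Of 31 chains that reached 1 FPKM in any library, 10 shared a wider pattern, again counted after the values were seen. They were higher in both libraries that carried *Foxj1* and in the one labelled AdArmc5 KO replicate 3 than in each other library. The share of all genes with this pattern was not counted either. Besides the 4 above, the 10 chains were *Col4a5*, *Col4a6*, *Col6a5*, *Col23a1*, *Col26a1* and *Col27a1*. *Col23a1*, a transmembrane chain, was at 4.30, 1.03 and 1.25 FPKM in Armc5 flox and at 1.22, 3.98 and 8.20 FPKM in AdArmc5 KO. *Col4a6* was at 2.98, 0.948 and 2.24 FPKM in Armc5 flox and at 0.568, 3.17 and 5.40 FPKM in AdArmc5 KO. *Cdh1*, the epithelial cadherin, was at 14, 0.0758 and 0.0699 FPKM in Armc5 flox and at 12.8 and 4.85 FPKM in the libraries labelled AdArmc5 KO replicates 2 and 3, and was listed at 0 in AdArmc5 KO replicate 1. Summed over 10 genes of male duct epithelium, the level was 17.4 to 277 FPKM in Armc5 flox and 18.2 to 3885 FPKM in AdArmc5 KO, with *Cdh1*, *Pax2*, *Pax8* and *Adam7* listed at 0 in a library. Over 10 genes of ciliated epithelium it was 31.5 to 315 FPKM and 39.1 to 299 FPKM, with *Dnah5*, *Pifo* and *Dynlrb2* at 0 in a library. The part of these cells in the levels of the chains was not tested. Without both libraries that carried *Foxj1*, 25 of 27 tested chains were above 0 and the median log2 fold change was 0.54.

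**Figure D5:**
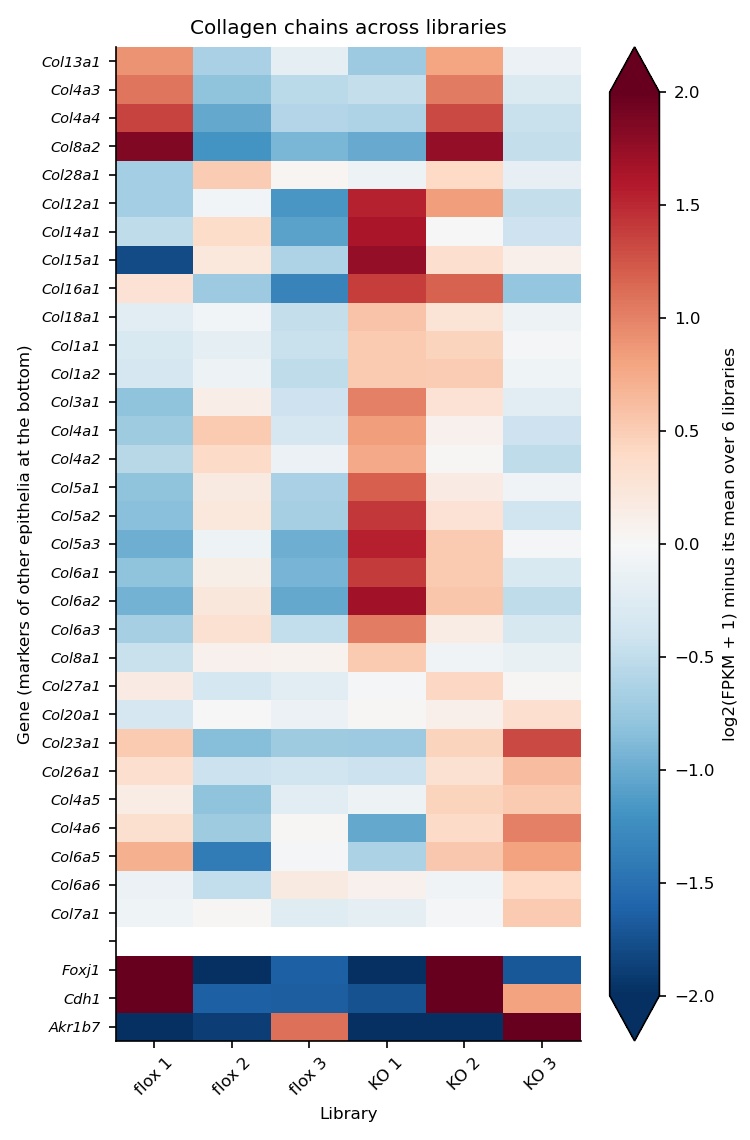
Log2(FPKM + 1) minus its mean over 6 libraries for the 31 collagen chains that reached 1 FPKM in a library, in the order of the library in which each was highest, and for *Foxj1*, *Cdh1* and *Akr1b7*, with colours limited to ±2. The block at the top follows *Foxj1* in flox 1 and KO 2, the large block in the middle is highest in KO 1, and the lower block is highest in KO 3.

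The 17 chains that were not tested were low in whole tissue. Of these, 13 did not reach 1 FPKM in any library, with at most 0.814 FPKM, and 7 were listed at 0 in a library. They included *Col2a1*, *Col9a1*, *Col9a2*, *Col10a1* and *Col11a1*, chains of cartilage. The highest untested chains were *Col4a3* and *Col13a1*, given above, then *Col26a1* and *Col7a1*, which reached 1.09 and 1.06 FPKM in the library labelled AdArmc5 KO replicate 3. Over all 44 chains, tested or not, the mean FPKM was higher in AdArmc5 KO for 41, a count that includes chains near 0.

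Genes that process, accompany or bind collagen were described from lists chosen with earlier results of these data known, as counts beside the 43.5% of all genes above 0. None passed an adjusted p of 0.05. Of 25 tested genes for procollagen processing, 20 were above 0, with a median log2 fold change of 0.21. In this list *Sparc*, a collagen-binding protein, was at 802, 1852 and 851 FPKM in Armc5 flox and at 4149, 2691 and 1042 FPKM in AdArmc5 KO, with flox replicate 2 above the library labelled AdArmc5 KO replicate 3. *Fkbp10*, a collagen prolyl isomerase, and *Adamts2*, which cleaves the N-propeptide of fibrillar procollagen, had log2 fold changes of 0.28 and 0.56 (limma, unadjusted p = 0.064 and 0.096). Of 6 crosslinking enzymes, 5 were above 0, with a median of 0.19. The exception was *Tgm2*, a transglutaminase, at −0.29.

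Of 18 fibril-associated proteoglycans and glycoproteins, 16 were above 0, with a median log2 fold change of 0.24. *Lum*, lumican, which binds collagen fibrils, was at 35.5, 40.8 and 37.8 FPKM in Armc5 flox and at 70.6, 59.4 and 49.0 FPKM in AdArmc5 KO, without overlap (limma, unadjusted p = 0.0082). *Bgn*, biglycan, a related proteoglycan, had a log2 fold change of 0.61 (unadjusted p = 0.039), close to that of *Col1a1*. Of 18 basement membrane partners, 17 were above 0, with a median of 0.29 and the lowest p for the heparan sulphate proteoglycan *Gpc1* (log2 fold change 1.0, unadjusted p = 0.046). All 14 tested collagen receptors were above 0, with a median of 0.21, among them the inhibitory immune receptor *Lair1* at 0.72 (unadjusted p = 0.035) and the collagen uptake receptor *Mrc2* at 1.17 (unadjusted p = 0.073). Of 19 genes of TGF-beta signalling and matrix regulation, 11 were above 0 and 8 below, with a median of 0.14. Every AdArmc5 KO library lay above every flox library for 3 of them and below for 1. Here *Ltbp3*, which binds latent TGF-beta, and *Ctgf*, a matricellular target gene, had log2 fold changes of 0.60 and 1.17 (unadjusted p = 0.024 and 0.033).

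Markers of the cells that could supply collagen had medians on both sides of 0. Of 12 fibroblast and progenitor genes, 9 were above 0 with a median log2 fold change of 0.13, and their summed level was 3663 to 5317 FPKM in Armc5 flox and 4344 to 5130 FPKM in AdArmc5 KO. *Pdgfrb*, a receptor of mural cells and progenitors, was at −0.26, and *Thy1*, a fibroblast surface protein, at 0.65 (limma, unadjusted p = 0.037). Of 10 macrophage genes, 9 were above 0 with a median of 0.43. Their sum was 692 to 1380 FPKM in Armc5 flox and 884 to 1669 FPKM in AdArmc5 KO. It was highest in flox replicate 2 and AdArmc5 KO replicate 1, as for most chains. The adipocyte and endothelial sums below were also highest in these libraries of each genotype. Of 10 smooth muscle and pericyte genes, 9 were above 0 with a median of 0.72, and their sum was 428 to 978 FPKM and 860 to 1583 FPKM. The 1583 FPKM came from the library labelled AdArmc5 KO replicate 3, which also carried *Akr1b7*. AdArmc5 KO replicates 1 and 2, at 933 and 860 FPKM, lay below flox replicate 2. *Actg2*, of this list, was at 194 FPKM in the library labelled AdArmc5 KO replicate 3 and at most 13.8 elsewhere. For endothelial and mesothelial genes, 1 of 8 each was above 0, with medians of −0.13 and −0.76 and sums of 503 to 674 and 50.6 to 193 FPKM in Armc5 flox and 488 to 595 and 9.88 to 148 FPKM in AdArmc5 KO. The mesothelial sum was highest, at 193 and 148 FPKM, in the libraries that carried *Foxj1*. The mesothelial genes *Lrrn4*, *Upk1b*, *Msln* and *Upk3b*, those of lowest p, were instead each highest in flox replicate 2 or 3. The mesothelial sum thus did not follow these genes. Adipocyte genes gave 5 of 8 above 0, a median of 0.09 and sums of 23382 to 39200 FPKM in Armc5 flox and 21862 to 34374 FPKM in AdArmc5 KO. Schwann cell genes gave 3 of 4, ciliated genes 3 of 4, duct genes 8 of 8 and cartilage genes 0 of 1 above 0, with medians of 0.24, 0.12, 0.74 and −0.01. No marker of the fibroblast, macrophage, smooth muscle, endothelial, mesothelial or adipocyte list was at 0 in a library. The part of cell composition in the levels of the chains was not tested.

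The sequence before the start of transcription was read for the chains, tested or not. RefSeq promoters of GRCm38.p6 were matched for 35 of the 44 genes (38 promoters), and *Col1a1*, *Col5a2* and *Col4a3* were among those without one. In the 250 bases before the start, a GC box (GGGCGG on either strand) was in 22 of 38 member promoters (57.9%) and in 32.7% of all 32851 promoters. A CCAAT box (CCAAT on either strand) was in 34.2% of member promoters and 33.8% of all, and a TATA box (TATAAA on either strand) in 13.2 and 12.4%. These letters do not overlap each other. A gene with several promoters was counted at each of them, and base composition was not compared. The matches are a description and show no binding, and a link to the fold changes was not tested. A match could lie anywhere in the 250 bases, whatever its distance from the start. Below are the bases before the start for *Col1a2* and *Col5a3*, 2 of the 3 chains with unadjusted p under 0.05 (limma). Those of *Col3a1*, which holds the letters TATAAA, and of *Col6a1*, which has none of the 3 motifs, follow. Matches are in capitals, and each line runs 5′ to 3′ on the strand of the gene. For *Col5a3* the 200 bases farthest from the start are shown, because another transcript begins within the window.
Col1a2 (chr6:4505368-4505617, plus strand): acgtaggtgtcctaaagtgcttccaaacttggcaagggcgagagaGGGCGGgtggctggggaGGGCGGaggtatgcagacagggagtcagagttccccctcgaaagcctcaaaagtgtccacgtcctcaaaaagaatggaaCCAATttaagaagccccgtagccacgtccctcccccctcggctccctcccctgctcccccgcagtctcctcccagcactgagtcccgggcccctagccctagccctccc
Col5a3 (chr9:20815118-20815317, minus strand): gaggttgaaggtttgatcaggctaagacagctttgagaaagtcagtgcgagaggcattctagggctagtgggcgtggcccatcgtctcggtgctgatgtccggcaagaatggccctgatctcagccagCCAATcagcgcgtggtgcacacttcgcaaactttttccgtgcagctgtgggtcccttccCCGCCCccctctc
Col3a1 (chr1:45311288-45311537, plus strand): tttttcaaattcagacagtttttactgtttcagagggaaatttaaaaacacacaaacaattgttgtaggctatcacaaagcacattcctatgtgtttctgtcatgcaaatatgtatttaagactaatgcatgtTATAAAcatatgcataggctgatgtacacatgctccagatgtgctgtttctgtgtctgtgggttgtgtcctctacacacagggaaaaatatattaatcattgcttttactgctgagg
Col6a1 (chr10:76726045-76726294, minus strand): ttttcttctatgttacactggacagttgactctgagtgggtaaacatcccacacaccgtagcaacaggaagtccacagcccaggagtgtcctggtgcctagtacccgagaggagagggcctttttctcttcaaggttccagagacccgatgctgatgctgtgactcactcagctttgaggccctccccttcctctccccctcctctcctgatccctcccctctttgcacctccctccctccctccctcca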

How the data were processed

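Per the paper and the submitters' processing notes, stranded poly(A) libraries were read as paired ends of 100 bases and mapped to mm10 with TopHat2 2.0.13, Bowtie2 2.2.3 and SAMtools 0.1.19. The authors computed the deposited FPKM with Cuffnorm 2.2.1. The deposited normalized counts are a signal scaled per library, and division by the value that stands for 1 fragment made 98.4 to 98.9% of the values above 0 whole, within 0.1, which gave the depths. The 6 columns of per-sample log2 values and the authors' own fold changes and p-values were not used.

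limma 3.58.1 (R 4.3.3), with a mean-variance trend and tested on simulated data, was fitted to log2(FPKM + 1) of the 12670 genes with at least 1 FPKM in at least 3 of 6 libraries, with genotype as the only term and Benjamini-Hochberg adjustment. This scale understates changes of low genes. The sources do not say which libraries came from littermates. The p-values set the difference of group means against the spread between these libraries, moderated over all tested genes. The chains and the 6 pathway and 10 marker lists were chosen with earlier results of these data known. Every tested chain could be named, and up to 4 genes of each list with the lowest p. *Foxj1*, *Adipoq* and the genes listed at 0 were named after their values were seen. The alternatives were another pseudocount, no filter, another scaling, a replicate block, libraries left out, a narrower fibrillar class and, chosen after seeing the data, the normalized counts.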

Additional observations from a re-analysis of the deposited data

How the results depend on the processing

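No tested chain was called at an adjusted p of 0.05 by limma under any alternative. The number of chains above 0 was 23 to 26 with 1 library left out in turn, lowest without Armc5 flox replicate 2, and the median log2 fold change was 0.51 to 0.69. It was 0.63 with a pseudocount of 0.1, 0.61 with the trimmed mean of M values and 0.63 on normalized counts, an alternative chosen after seeing the data. With the replicate block in limma, 0 chains were called, the lowest adjusted p was 0.96 and the median was 0.58. Unadjusted p was under 0.05 for 6 chains in place of 3, and the share of all genes was not counted there. Libraries of the same number did not deviate together in all pairs (correlations of −0.53, −0.41 and 0.58). The 2 libraries that carried *Foxj1* had a correlation of 0.75. Such correlations cannot tell whether libraries of the same number came from littermates. With 1 library left out, the log2 fold change ran from −0.15 to 0.49 for *Col4a2*, −0.23 to 0.36 for *Col28a1*, −0.11 to 0.95 for *Col6a5*, −0.45 to 0.89 for *Col4a4*, −0.66 to 1.15 for *Col8a2*, −0.20 to 0.82 for *Col4a6* and −0.018 to 0.32 for *Col8a1*. Without both libraries that carried *Foxj1*, it was −0.0055 for *Col4a2* and −0.41 for *Col28a1*. The cause of these reversals was not tested. Counting only Col1, Col3 and Col5 as fibrillar left the ratio of fibrillar means at 1.81. The planned test for counts was not run, because some values did not give whole fragments. Where tested, a chain rested on at least 47 fragments in a library, so the spread between 3 libraries, more than depth, sets the precision.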
